A study of Homo sapiens with 6 samples.

Results

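The genes described here are 10 members of the TGF-beta and BMP signalling response: the ligands TGFB1 and TGFB2, the inhibitors SMAD6, SMAD7, SKIL, BAMBI and PMEPA1, and the response genes ID1, ID2 and ID3. They were taken as every probe set whose platform annotation names exactly 1 of these genes, which gave 24 of the 49395 probe sets of the table, for 10 of 18132 genes, and no probe set shared with another annotated gene. RNA from the ovarian cancer line ES-2, an established human line, was measured on 6 Affymetrix PrimeView arrays, a 1-colour oligonucleotide platform that reads a gene through 1 or several probe sets. The labels assign 3 arrays to cells that overexpress CADM1, an adhesion molecule of the immunoglobulin superfamily, and 3 from ES-2 cells that the series describes as mock controls, all harvested in logarithmic growth. The sources used here do not give the vector, its promoter, the number of clones or any ligand in the medium, and the source name of 1 overexpression array reads CADM2 and of another CADM3. Nothing in the labels says whether replicate arrays were separate cultures, so every p-value reflects the spread among these 6 arrays, which may be only technical.

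Ligands of the TGF-beta family bind pairs of receptor kinases at the cell surface, which phosphorylate receptor SMADs that enter the nucleus with SMAD4. Activins and TGF-beta itself act mainly through SMAD2 and SMAD3, and bone morphogenetic proteins (BMPs) through SMAD1, SMAD5 and SMAD9. ID1, ID2 and ID3 are well known BMP-responsive genes, whose helix-loop-helix products lack a DNA-binding region and hold E proteins away from E-box sequences. SMAD6, SMAD7, SKIL, BAMBI and PMEPA1 are induced by the pathway and dampen it, so their transcript levels are often read as a sign of its activity, and in epithelial tumours TGF-beta can act as a growth inhibitor or as a driver of invasion.

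The ID genes carried all of the called differences, so the 250 bases upstream of their annotated starts are shown. They are RefSeq sequences of GRCh38.p14, in lower case and 5′ to 3′ on the gene's strand, with the core SMAD-binding letters GTCT, or AGAC where they lie on the other strand, in capitals. They cover chr20:31605039-31605288 (plus strand) for ID1, chr2:8681806-8682055 (plus strand) for ID2 and chr1:23559502-23559751 (minus strand) for ID3.
ID1: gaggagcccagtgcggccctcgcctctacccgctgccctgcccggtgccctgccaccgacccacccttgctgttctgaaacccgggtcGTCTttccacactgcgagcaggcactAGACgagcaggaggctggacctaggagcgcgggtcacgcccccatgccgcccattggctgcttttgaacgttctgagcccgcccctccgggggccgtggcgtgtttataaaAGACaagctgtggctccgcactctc
ID2: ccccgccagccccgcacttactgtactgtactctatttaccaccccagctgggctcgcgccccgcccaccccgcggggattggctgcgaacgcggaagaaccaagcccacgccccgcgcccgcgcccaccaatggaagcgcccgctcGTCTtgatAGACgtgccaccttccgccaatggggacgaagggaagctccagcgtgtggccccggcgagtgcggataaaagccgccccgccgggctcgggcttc
ID3: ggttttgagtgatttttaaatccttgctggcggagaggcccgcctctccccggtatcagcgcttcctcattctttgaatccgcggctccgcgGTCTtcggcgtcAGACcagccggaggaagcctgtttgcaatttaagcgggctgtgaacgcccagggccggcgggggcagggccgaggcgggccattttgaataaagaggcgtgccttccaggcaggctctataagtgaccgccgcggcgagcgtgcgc
The core letters occur 3 times upstream of ID1, 2 times upstream of ID2 and 2 times upstream of ID3. Windows of the same length hold them on either strand in 77.5% of the 35116 promoters in the table, with a median count of 1. Their presence thus does not set these genes apart, and whether their number does was not tested. The BMP-response letters GGCGCC, searched on both strands, are in none of the 3 windows and in 16.4% of all windows. The E-box letters CANNTG, which read the same on both strands, occur 1 time upstream of ID2, are not in the ID1 or ID3 window, and are in 61.8% of all windows. These are letter matches in a short window and were not tested as binding sites.

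The labels were checked on CADM1 itself. Its brightest probe set, 11728805_a_at, went against them. It read 8.14 ± 0.040 (SD, n = 3) in the arrays labelled overexpression and 10.26 ± 0.030 (SD, n = 3) in the arrays labelled control. That change of -2.12 was called (limma, adjusted p = 1.65e-14), and the other 5 CADM1 probe sets were not. Of these 11757557_s_at ran with the labels without overlap, at 7.64 against 7.47, a change of 0.17 (limma, adjusted p = 0.0975). Whether 11728805_a_at or 11757557_s_at lies in the introduced sequence is not known from the labels, so every direction below is that of the labels. The median log2 level of an array was 6.18 to 6.20, and pairs of arrays correlated at 0.998 to 0.999 over the 49293 probe sets left without array controls. Of 9 measured ovarian epithelial markers 5 (KRT7, KRT8, KRT18, MSLN and FOLR1) lay at or above the median level of all probe sets, while PAX8, WT1, MUC16 and EPCAM lay below it. These 5 had no overlap between the groups and an unadjusted p under 0.05 (limma) but were not called. Of all probe sets 17.4% had no overlap. Of all genes 13.9% had such a p, or 20.7% in a fit of genes at or above that level. The changes of the 5 were -0.06, -0.04, -0.07, 0.10 and -0.08 in that order. Their sizes were near that of ID1 below, and their part in the results was not tested. Of the markers of other cell types, 1 of 7 fibroblast, 1 of 5 endothelial and 0 of 5 blood genes reached that level. CDH5, an endothelial cadherin, was the only called marker, with a log2 fold change of -0.27 (limma, adjusted p = 0.0475 over all genes), and its part in the results below was not tested.

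The first question was which of the 10 genes differed between the labelled groups. ID1 was lower in the arrays labelled overexpression by all 3 of its probe sets, by 6.47% to 8.47% of its signal, and ID2 was higher by both of its probe sets, by 13.4% and 18.1%. None of the 3 ID3 probe sets and none of the 16 probe sets of the ligands and inhibitors was called. A probe set was called at an adjusted p under 0.05 (limma with a mean-variance trend, Benjamini-Hochberg over all 49293 probe sets). By that rule 5 of 24 member probe sets were called, 2 higher and 3 lower, against 1.49% of all probe sets, 0.605% higher and 0.887% lower. The members were mostly bright, with 20 of 24 at or above the median level of all probe sets. In a fit of probe sets at or above that level, 5 of 20 members were called, against 4.41% of all those tested. The 5 come from 2 genes and several read the same transcript, so they are not 5 separate results. The groups did not overlap in 6 of 24, 3 in each direction, against 17.4% of all probe sets, 8.5% higher and 8.94% lower. The median log2 fold change of the 24 was 0.00, as it was over all probe sets, and their median absolute change was 0.04 against 0.05.

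**Figure D1:**
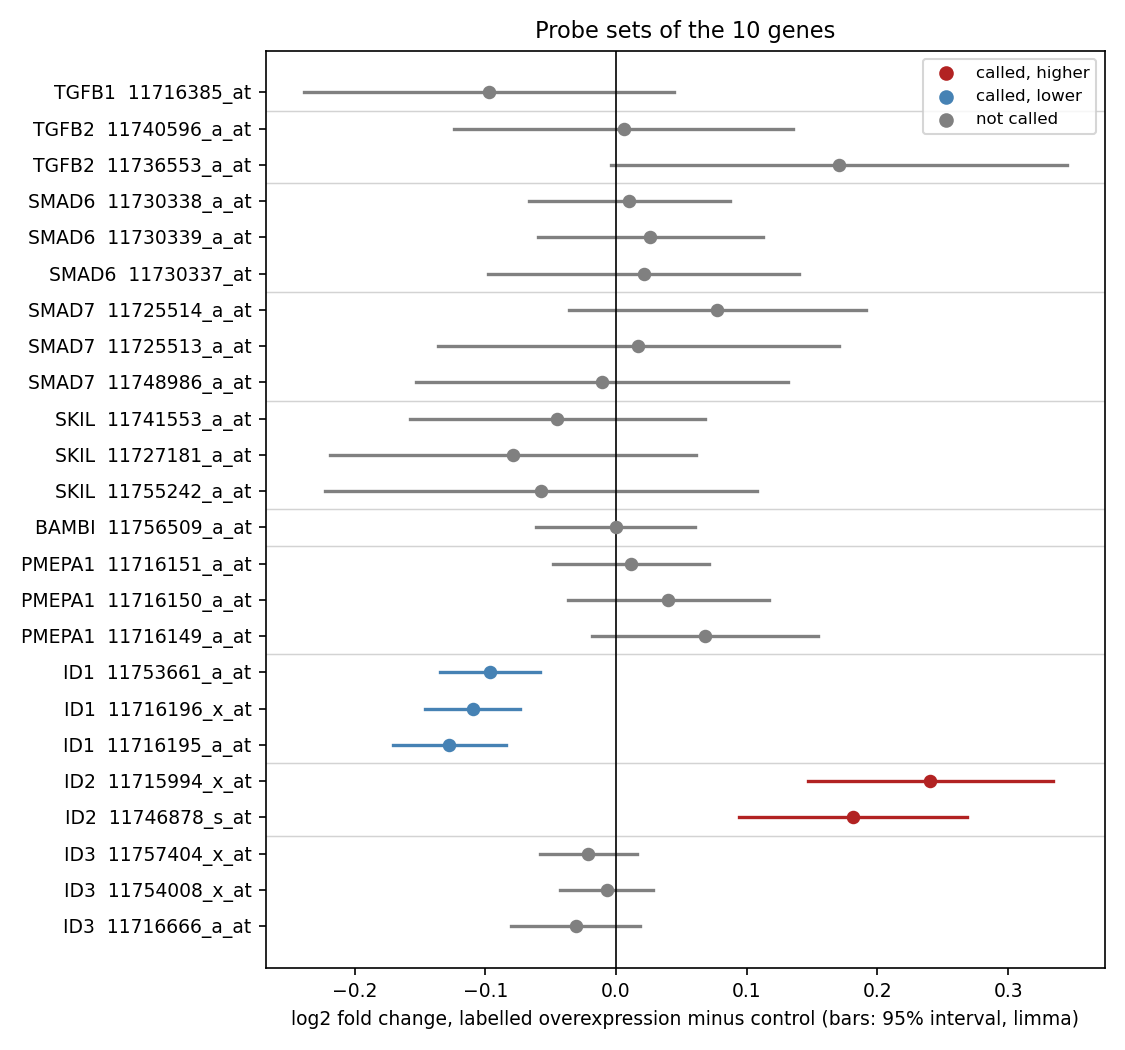
Log2 fold change (arrays labelled overexpression minus control) with its 95% interval from limma for each of the 24 probe sets, grouped by gene from ligands at the top to the ID genes at the bottom. The 3 ID1 probe sets lie wholly below 0 and the 2 ID2 probe sets wholly above it, and every other interval includes 0.

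ID1 encodes an inhibitor of basic helix-loop-helix factors that is a standard readout of BMP signalling. Its brightest probe set, 11753661_a_at, read 12.74, 12.70 and 12.75 on the log2 scale in the 3 arrays labelled overexpression and 12.84, 12.82 and 12.82 in the 3 arrays labelled control. All 3 overexpression arrays lay below all 3 control arrays, and the change was -0.10 ± 0.018 (SE) (limma, adjusted p = 0.0142). The probe set 11716195_a_at read 11.68, 11.64 and 11.69 against 11.80, 11.80 and 11.80, a change of -0.13 ± 0.020 (SE) (limma, adjusted p = 0.00502). The remaining one, 11716196_x_at, is of a type whose probes can match other transcripts, and it read 12.44, 12.44 and 12.44 against 12.56, 12.55 and 12.54. Its change was -0.11 ± 0.017 (SE) (limma, adjusted p = 0.00408), and in none of the 3 probe sets did the groups overlap. The arrays of a group differed by at most 0.05 in any ID1 probe set, less than the gap between the groups. Among the 218 genes called lower at 1 probe set a gene, ID1 stood 215th by size, and the median size of those was 0.18.

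ID2 encodes a close relative of ID1 with the same helix-loop-helix fold, and its difference ran the other way. The probe set 11715994_x_at read 8.28, 8.33 and 8.42 in the arrays labelled overexpression and 8.04, 8.12 and 8.15 in the arrays labelled control, a change of 0.24 ± 0.044 (SE) (limma, adjusted p = 0.0125). The probe set 11746878_s_at read 8.22, 8.19 and 8.20 against 7.95, 8.02 and 8.09, a change of 0.18 ± 0.041 (SE) (limma, adjusted p = 0.0412). In both, every overexpression array lay above every control array, and the first control array was the lowest of the 6. Both are of types, _x_at and _s_at, whose probes can match transcripts of other genes, and no other probe set in the table names ID2 alone. The change in ID2 stood 64th by size among the 174 genes called higher at 1 probe set a gene, whose median size was 0.16.

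**Figure D2:**
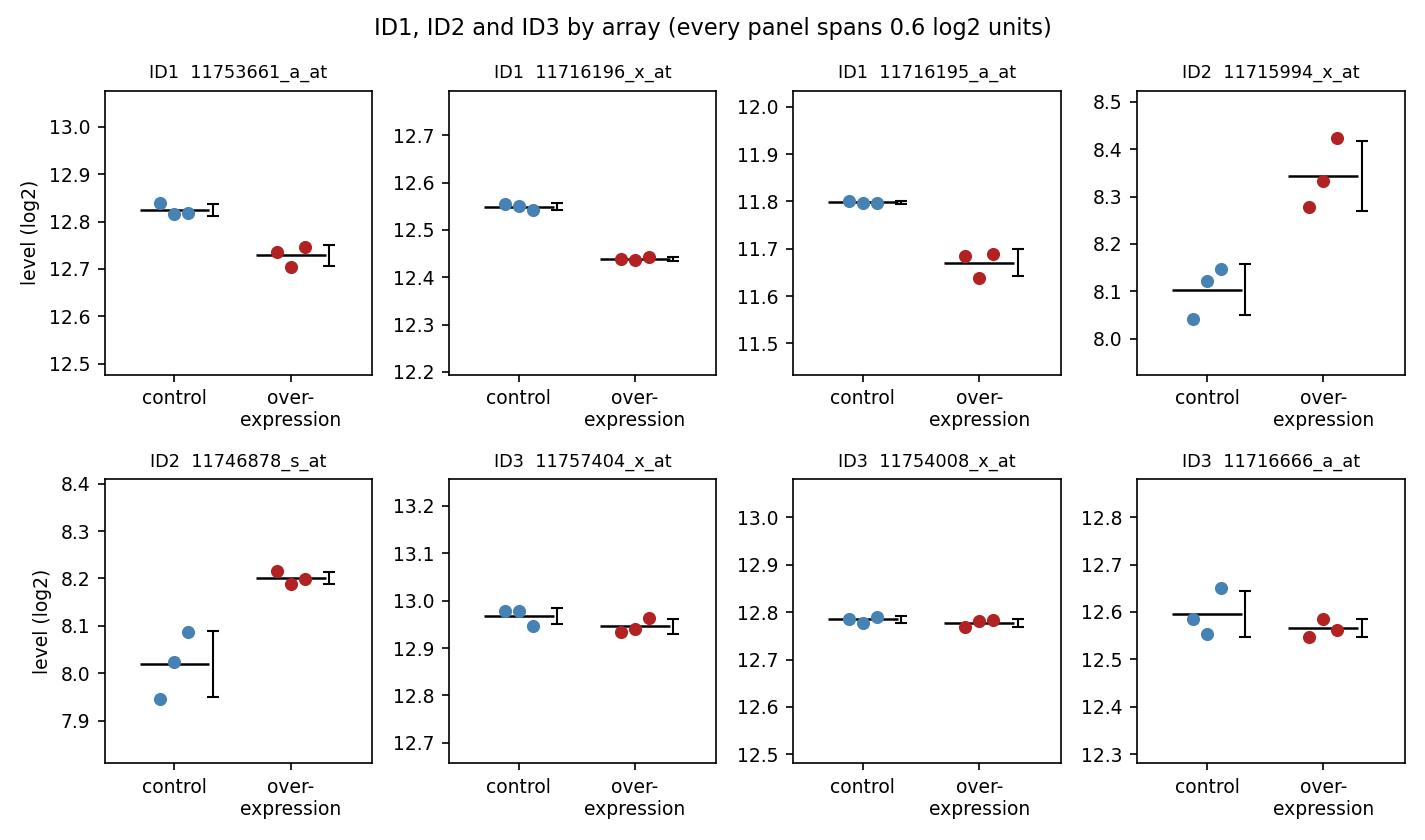
Level on the log2 scale of each ID1, ID2 and ID3 probe set in the 3 arrays labelled control (blue points) and the 3 labelled overexpression (red points), with the group mean (line) and SD (bar), every panel spanning the same range. The red points lie below the blue in the 3 ID1 panels and above them in the 2 ID2 panels, and in the 3 ID3 panels the groups overlap.

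ID3, the third member of this family on the list, was not called, and its 3 small changes had the sign of those of ID1. Among its probe sets, 11757404_x_at, read 12.93, 12.94 and 12.96 against 12.98, 12.98 and 12.95, a change of -0.02 with a 95% interval of -0.06 to 0.02 (limma, adjusted p = 0.681). The other probe sets gave -0.01 for 11754008_x_at, with an interval of -0.04 to 0.03, and -0.03 for 11716666_a_at, with an interval of -0.08 to 0.02. The groups overlapped in all 3 probe sets, and the probes of 11757404_x_at and 11754008_x_at can match other transcripts. The lowest bound of these intervals, -0.08, is smaller in size than each of the 3 ID1 changes, but the ID1 changes have intervals too. Those of 11753661_a_at, -0.1349 to -0.0579, and 11716196_x_at, -0.146 to -0.0735, overlap that of 11716666_a_at, -0.0804 to 0.0185. That of 11716195_a_at, -0.171 to -0.0844, does not. The difference between ID1 and ID3 was not itself tested.

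The calls for ID1 and ID2 rest on how the spread between arrays is modelled. Without a mean-variance trend, which lends bright probe sets the smaller spread of other bright ones, none of the 5 was called, with adjusted p between 0.258 and 0.406 (limma), and 6 of the 24 had an unadjusted p under 0.05, against 10.5% of all probe sets in that fit. With the trend 5 of 24 did, against 12.8%. Without the first control array 2 of 24 were called, both of them ID1, and over all probe sets the calls fell from 735 to 269, or 0.546%. The ID1 probe sets 11716195_a_at and 11716196_x_at kept their calls whichever array was left out. The call of 11753661_a_at was lost without the first overexpression (adjusted p = 0.0749), the second overexpression (0.0625) or the first control array (0.113). For ID2, 11715994_x_at lost its call without the first control array alone (0.0884), while 11746878_s_at was called only with all 6 arrays or without the control array numbered 3, its adjusted p being 0.0761 to 0.192 without any other array. Centring each array on its median also took 11746878_s_at just past the threshold (0.0517). The fold changes themselves moved little, between -0.08 and -0.14 over all ID1 probe sets and settings and between 0.15 and 0.27 for ID2.

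**Figure D3:**
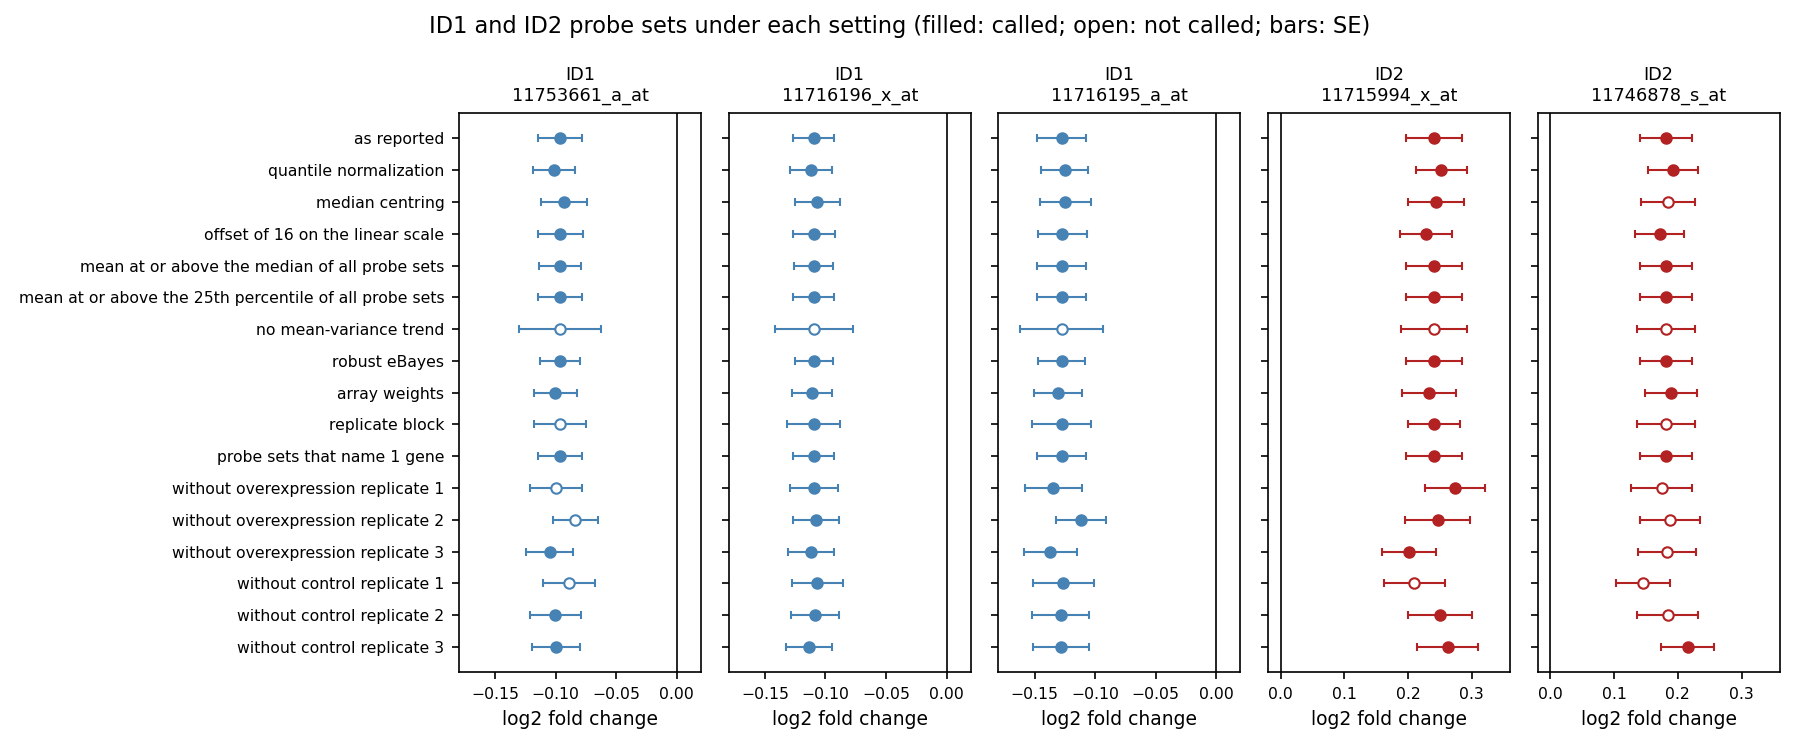
Log2 fold change with its SE for the 5 called probe sets of ID1 (blue) and ID2 (red) under each setting, filled where called and open where not. Every point keeps its side of 0, all 5 are open without a mean-variance trend, and 11746878_s_at of ID2 has the most open points.

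The ligand genes were not called. TGFB1, which encodes the main latent growth factor of the pathway, has 1 probe set, 11716385_at, which read 6.18, 6.33 and 6.25 in the arrays labelled overexpression and 6.40, 6.40 and 6.25 in the arrays labelled control. The groups overlapped, and the change was -0.10 with a 95% interval of -0.24 to 0.04 (limma, adjusted p = 0.601). TGFB2, a second isoform whose latent form lacks the integrin-binding motif of the others, has 2 probe sets that differed from each other. The dimmer, 11736553_a_at, read 5.20, 5.10 and 5.02 against 4.95, 4.85 and 5.001, with every overexpression array above every control array. Its change of 0.17 had an interval of -0.00 to 0.34 (limma, adjusted p = 0.403). The brighter, 11740596_a_at, gave 0.01 with an interval of -0.12 to 0.14, and the groups overlapped. No detection calls were used here, so it is not known whether 11736553_a_at, which lies below the median level of all probe sets, detects its transcript.

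The inhibitory SMADs, which compete with receptor SMADs and draw ubiquitin ligases to the receptors, did not pass the test. SMAD6, which acts chiefly on BMP signals, was read by 3 probe sets with changes of 0.01, 0.03 and 0.02, and the widest of their intervals ran from -0.10 to 0.14. Its brightest probe set, 11730338_a_at, read 10.06, 10.07 and 9.94 against 9.996, 9.97 and 10.07, so the groups overlapped throughout. SMAD7, which acts on both branches, gave 0.08 from 11725514_a_at, which read 6.92, 6.95 and 7.06 against 6.89, 6.87 and 6.93, with an interval of -0.04 to 0.19 (limma, adjusted p = 0.603). Its other probe sets, 11725513_a_at and 11748986_a_at, gave 0.02 and -0.01 and both lay below the median level of all probe sets. All 6 SMAD6 and SMAD7 probe sets had overlapping groups.

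The remaining inhibitors act at other steps. BAMBI, a pseudoreceptor without a kinase domain, was read by 11756509_a_at at 9.10, 9.12 and 9.15 against 9.13, 9.12 and 9.12. Both group means were 9.12, and the interval of the difference ran from -0.06 to 0.06 (limma, adjusted p = 1). PMEPA1, a membrane protein that sequesters receptor SMADs, gave 0.01, 0.04 and 0.07 from its 3 probe sets, and the largest, 11716149_a_at, had an interval of -0.02 to 0.15 (limma, adjusted p = 0.527). SKIL, the nuclear co-repressor SnoN, gave -0.04, -0.08 and -0.06. Its arrays labelled overexpression were spread more widely than those of the other members, with 11727181_a_at at 6.50, 6.77 and 6.64 against 6.71, 6.72 and 6.71. That probe set had an interval of -0.22 to 0.06 (limma, adjusted p = 0.681). In every probe set of BAMBI, PMEPA1 and SKIL the groups overlapped.

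Other genes of the pathway were read from 8 lists of 100 distinct genes, with 96 analysed here at 1 probe set a gene. Of these, 5 were called higher and 3 lower under the overexpression label (limma, adjusted over all 18132 genes), against 2.16% of all genes, 0.96% higher and 1.2% lower. Most were bright, with 70 of 96 at or above the median level of all probe sets. In a fit of genes at or above that level, 11 of 70 were called, 8 higher and 3 lower, against 5.76% of all those tested. Their median log2 fold change was 0.02, against 0.01 over all genes. Of the 8 called genes 6 were on the list of TGF-beta targets, and the other two act in the activin branch. Several of the 6 were known to differ in these arrays when the lists were drawn up, so their number is no independent evidence about the pathway. Without a mean-variance trend none of the 96 was called, and 18 had an unadjusted p under 0.05, against 11.5% of all genes in that fit. With the trend 21 of 96 did, against 13.9%.

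In the activin branch, INHA, which encodes the inhibin alpha chain, fell and FST, which encodes follistatin, an extracellular trap for activins, rose. INHA, with 1 probe set, read 8.43, 8.39 and 8.49 in the arrays labelled overexpression against 8.65, 8.70 and 8.70, a change of -0.25 ± 0.035 (SE) (limma, adjusted p = 0.00159). FST read 8.57, 8.62 and 8.63 against 8.39, 8.38 and 8.32 in its brightest probe set, a change of 0.25 ± 0.035 (SE) (limma, adjusted p = 0.00159). Groups did not overlap in either, and all 3 FST probe sets had this direction, 2 of them called. Both genes were called in 16 of 17 fits, all but the one without a trend. INHA was the only called gene of 13 further ligand genes, and FST the only one of 16 further inhibitors and co-repressors. Over all genes 0.96% were called higher and 1.2% lower. In a fit of genes at or above the median level 5.76% were called, and 7 of the 13 and 13 of the 16 reached that level.

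Among 18 measured TGF-beta targets 4 were called higher and 2 lower, against 0.96% and 1.2% of all genes. But 16 of the 18 lay at or above the median level of all probe sets. In a fit of genes at or above that level, 5.76% were called in either direction. Several of the called targets were known to differ when the list was drawn up, so these counts are a description only. The median change of the 18 was 0.02. CDKN2B, the CDK inhibitor p15, rose by 0.25 ± 0.031 (SE) (limma, adjusted p = 0.00068), with its 3 probe sets all higher and 2 called, and CDKN1A, the CDK inhibitor p21, rose by 0.15. ACTA2, smooth muscle actin, rose by 0.26 in 1 probe set, but its other 2 lay at 3.38 to 3.48 and were not called, and the mean of the 3 was not called. SNAI2, a transcription factor of mesenchymal cells, rose by 0.18, a call lost without any one of the 3 overexpression arrays or without the control array numbered 1 or 3. TGFBI, a secreted matrix protein, fell by 0.22 ± 0.038 (SE) (limma, adjusted p = 0.00821), and all 4 of its probe sets were called lower. MYC, which TGF-beta represses in many epithelial cells, fell by 0.19. The calls of TGFBI and MYC were both lost without the first overexpression or the first control array. CCN2, chosen after its values were seen, gave the largest change of the list, 0.34 ± 0.088 (SE), but with an SD of 0.15 and 0.18 in the groups it was not called (limma, adjusted p = 0.0652).

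**Figure D4:**
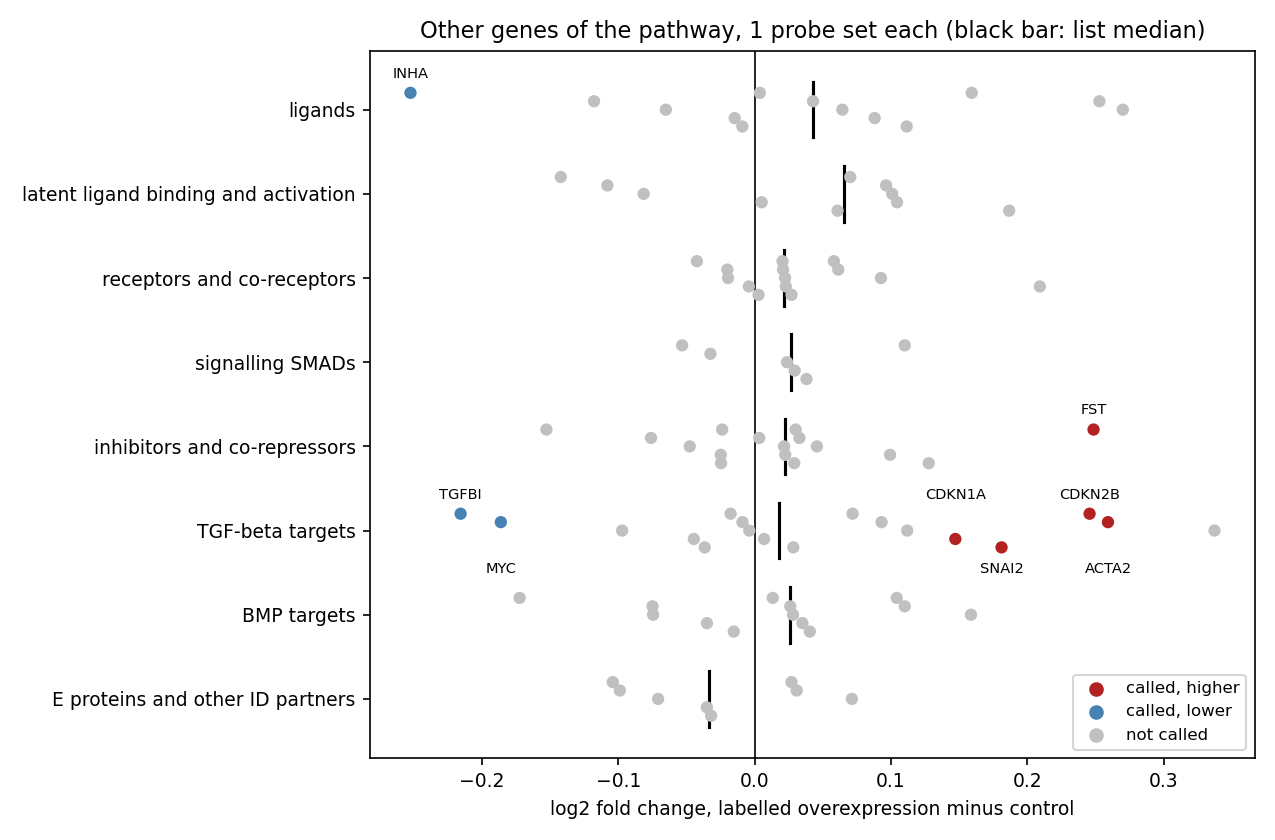
Log2 fold change (arrays labelled overexpression minus control) of 96 further pathway genes at 1 probe set a gene, by list, with the list median as a black bar; HES1 and SMAD9 stand on 2 lists, and the points are spread vertically for legibility. Called genes are named, 6 of 8 in the list of TGF-beta targets, and no gene of the receptors, signalling SMADs or BMP targets is called.

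The other lists held no called gene in the fit of all genes. For the counts of unadjusted p under 0.05 below, the share was 13.9% of all genes (limma). It was 20.7% in a fit of genes at or above the median level. Of 10 genes that bind or activate latent ligand, LTBP1 gave 0.10 (limma, adjusted p = 0.0813) and LTBP3 -0.14 (0.182). Of the 10, 5 had an unadjusted p under 0.05, and 6 lay at or above the median level. Of 14 receptors and co-receptors TGFBR3, the co-receptor betaglycan, gave 0.09 (limma, adjusted p = 0.0654) and BMPR1B 0.21 (0.388), and 1 had an unadjusted p under 0.05. Of 6 signalling SMADs SMAD9 gave 0.11 and SMAD1 -0.05, with none under 0.05 unadjusted. Of 13 BMP targets other than the members, DLX2 gave 0.10 and RUNX2 -0.17, again with none under 0.05 unadjusted, and ID4, the remaining ID gene, gave -0.07 at levels of 3.26 and 3.33. Of 8 E proteins and other partners of ID proteins, TCF3, which encodes the E proteins E12 and E47, gave -0.10 with no overlap between the groups (limma, adjusted p = 0.194) and ELK4 gave -0.10. TCF4 and TCF12 gave -0.07 and 0.03. In whole cultures, a change in RNA per cell and a change in the share of cells that carry it cannot be told apart.

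The genes whose pattern over the 6 arrays was nearest to ID1, by the root mean square difference of their deviations from their own means among 9766 genes at or above the median level, were TMEM97, LCMT1 and ACO1, at 0.0057, 0.0066 and 0.0081. Of these, TMEM97 was called, with a change of -0.10 (limma, adjusted p = 0.0302), and LCMT1 and ACO1, at -0.09 each, were not. The nearest to ID2 were LYN, SIPA1L1 and SEMA3C, at 0.0133, 0.0240 and 0.0269, with changes of 0.19, 0.16 and 0.17. LYN and SIPA1L1 were called (limma, adjusted p = 0.0217 and 0.00996) and SEMA3C was not (0.0568). This likeness rests on 6 arrays and on the group difference the genes share, and is given as a description.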

How the data were processed

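RNA from 3 arrays labelled overexpression and 3 labelled control was read from 1 table. The log2 values were deposited by the authors as normalized expression, credited to MAS5 per the submitters' processing notes, with no version or setting. The log base was inferred from the range, 2.15 to 14.33, and the scaling and summary methods are unknown, so the true size of fold changes is uncertain. No detection calls were used, and a genome build, GRCh38.p14, was used only for the upstream sequences. Precision is limited by the number of arrays.

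Array controls (102) were removed and nothing else was normalized or filtered. The platform annotation names 1 gene for 44988 probe sets, and 44961 of their gene numbers matched the current gene table. The 2 labelled groups were compared by limma 3.58.1 under R 4.3.3 (lmFit, eBayes with trend), two-sided, over 49293 probe sets, and over 18132 genes at the brightest probe set, with an _x_at probe set used only where a gene had no other. The genes named were all members, called pathway genes or the 2 of lowest p in a list with none, CADM1, and the 3 genes nearest each called member; any other gene named was picked with its values in view. The members and lists were chosen with earlier results of these data known. The alternatives were other normalizations, an offset of 16, filters on dim probe sets, other variance models, array weights, a replicate block, other choices of probe set and leaving out each array. Plots used matplotlib 3.10.9 (Python 3.11.15).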

Additional observations from a re-analysis of the deposited data

How the results depend on the processing

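Of 24 member probe sets, 15 kept the sign of their change under every alternative that tested them, the 5 of ID1 and ID2 among them under all 16. SKIL 11755242_a_at and TGFB2 11736553_a_at, both among the 15, were too dim for the filter at the median level, and the SKIL value came to 0.00 without the overexpression array numbered 3. The other 9 were uncalled values near 0. BAMBI, below 0 by less than 0.01 with the values as deposited, gave 0.0028 after quantile normalization and 0.0031 after median centring, and the TGFB2 probe set 11740596_a_at gave -0.0086 with array weights. Leaving out 1 array at a time gave -0.0121 to 0.0108 for BAMBI, -0.0956 to 0.0045 for SKIL 11741553_a_at, -0.0104 to 0.0233 for PMEPA1 11716151_a_at and -0.0393 to 0.0358 for TGFB2 11740596_a_at. For SMAD6 it gave -0.0152 to 0.0522 (11730338_a_at), -0.0190 to 0.0571 (11730339_a_at) and -0.0326 to 0.0558 (11730337_at), and for SMAD7 -0.0267 to 0.0766 (11725513_a_at) and -0.0376 to 0.0128 (11748986_a_at).

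Called were 735 probe sets, 5 of them members, and 392 genes, 8 of them on the pathway lists. Without a mean-variance trend the counts were 17, 0, 11 and 0 (limma), with 6 member probe sets and 18 pathway genes at an unadjusted p under 0.05, among 5191 probe sets and 2080 genes in all. Leaving out 1 array gave 241 to 692 probe sets, 2 to 5 member probe sets, 116 to 375 genes and 5 to 9 pathway genes, with fewer arrays in each fit. Some settings gave more calls, with 5 member probe sets called in each. The filter at the median level gave 1086 probe sets, 563 genes and 11 pathway genes. Array weights gave 979, 498 and 9, and quantile normalization 856, 445 and 8. The labels number the arrays 1 to 3 in each group, but same-numbered arrays did not deviate together (correlations of 0.113, -0.083 and -0.081), and not every array correlated best with its own number. With the replicate number as a block 377 probe sets, 3 of them members, 172 genes and 7 pathway genes were called; ID1 11753661_a_at (adjusted p = 0.0618) and ID2 11746878_s_at (0.0960) lost their calls. The cause of these changes was not tested. Signal over background was not assessed, so low values may not report their genes.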
